A study of Homo sapiens with 15 samples.

Results

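The genes described here are 9 interferon response genes, IFITM1, IFITM2, IFITM3, ISG15, IFI6, MX1, OAS1, IRF1 and IFIT1. They were matched by symbol, each to 1 identifier, among the 19684 genes of the tables, and were followed through 15 libraries of poly(A) RNA in 5 groups of 3. The undifferentiated group was the hiPSCs themselves (human induced pluripotent stem cells), of the line BC1-GFP, which is labelled WT. D70-ROs and D150-ROs were the neural retina (NR) layers of retinal organoids at day 70 and day 150, with several organoids pooled in each library. P1 and P5 iMGCs were induced Müller glial cells, grown as adherent cultures in serum-containing medium from cells of D150-RO NR layers and taken at passage 1 and passage 5. The organoid medium also contained serum by day 70, and hiPSCs were grown in a different medium. All groups came from this 1 line, and the labels name no interferon, virus or drug for any of them. The values below thus describe cells with no named stimulus, and whether the cultures themselves held one was not tested.

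Interferons are secreted signals of infection. Type I and type III interferons act through receptors and the kinases JAK1 and TYK2 on STAT proteins that, together with IRF9, bind the interferon-stimulated response element (ISRE) in target promoters. Interferon gamma acts through JAK1 and JAK2 and the gamma-activated site (GAS). IRF1 is a transcription factor of this pathway, itself an early target of interferon gamma. The products of the other genes act against viruses at different steps. IFITM1, IFITM2 and IFITM3 are small membrane proteins that hinder the fusion of viruses with cell membranes, IFIT1 binds foreign RNA ends, OAS1 makes the signal that activates RNase L, and MX1 is a GTPase that traps viral components. ISG15 is a ubiquitin-like protein that is joined to other proteins, and IFI6 is a small membrane protein. Pluripotent stem cells are known to express some of these genes, IFITM genes among them, without interferon. MGCs are the main glia of the retina and can take part in its innate immune responses.

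The promoters of 5 members are shown because they hold the letters that the pathway's factors bind and belong to genes that moved in different directions below. They are the 250 bases before a RefSeq transcription start (GRCh38.p14), written 5′ to 3′ on the strand of the gene. Capitals mark the ISRE letters, GAAA, any 2 bases and GAAA again, or the GAS letters TTCNNNGAA, searched on both strands, and overlapping matches run together.
IFITM1, chr11:313790-314039, plus strand: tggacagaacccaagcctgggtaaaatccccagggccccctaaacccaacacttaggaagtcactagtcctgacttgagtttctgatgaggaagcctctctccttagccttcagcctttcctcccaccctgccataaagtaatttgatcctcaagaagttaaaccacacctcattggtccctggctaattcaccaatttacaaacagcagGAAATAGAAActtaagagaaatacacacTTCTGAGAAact
IFITM3, chr11:320861-321110, minus strand: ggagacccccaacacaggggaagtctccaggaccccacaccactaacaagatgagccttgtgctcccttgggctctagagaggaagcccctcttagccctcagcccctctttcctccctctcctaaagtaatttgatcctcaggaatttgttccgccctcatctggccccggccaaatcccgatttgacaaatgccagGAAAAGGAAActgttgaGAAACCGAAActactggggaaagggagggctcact
ISG15, chr1:1013247-1013496, plus strand: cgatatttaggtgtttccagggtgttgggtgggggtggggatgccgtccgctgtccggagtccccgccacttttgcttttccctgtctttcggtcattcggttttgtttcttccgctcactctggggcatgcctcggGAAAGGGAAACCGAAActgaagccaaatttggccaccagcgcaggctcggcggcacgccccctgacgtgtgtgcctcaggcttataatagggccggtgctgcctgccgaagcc
IFI6, chr1:27672193-27672442, minus strand: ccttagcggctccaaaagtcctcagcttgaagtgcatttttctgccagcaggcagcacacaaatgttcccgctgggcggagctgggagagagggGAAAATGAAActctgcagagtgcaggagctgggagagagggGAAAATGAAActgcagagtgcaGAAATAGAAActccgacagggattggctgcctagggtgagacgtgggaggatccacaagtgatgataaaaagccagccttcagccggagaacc
IRF1, chr5:132490774-132491023, minus strand: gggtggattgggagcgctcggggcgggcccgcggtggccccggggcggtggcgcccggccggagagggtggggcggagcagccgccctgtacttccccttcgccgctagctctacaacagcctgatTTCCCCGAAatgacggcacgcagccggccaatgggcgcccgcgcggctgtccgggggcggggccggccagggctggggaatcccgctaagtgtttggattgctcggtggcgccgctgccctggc

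ISRE letters stood in the promoters of 6 of the 8 members with an entry, IFITM1, IFITM3, ISG15, IFI6, IFIT1 and 1 of the 3 starts of MX1. The same letters stood in 3.71% of the 27305 genes of the promoter table. GAS letters stood in 4 of the 8, IRF1, IFITM1, OAS1 and MX1, against 8.09% of all genes. IFITM1 and MX1 had both. The IRF1 promoter had GAS letters and no ISRE letters, and those of IFITM3, ISG15 and IFI6 had ISRE letters and no GAS letters. IFITM2 had no entry. These matches describe the letters only. The windows of IFITM1, IFITM3 and ISG15 lay inside the longer gene models of GENCODE 29, which was used for positions because the build and annotation of the files are not given in the sources used here.

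Expected counts summed to between 11349600 (D70-RO replicate 2) and 20398755 per library. Levels below are in FPKM (read counts that the authors divided by transcript length and by mapped reads), and differences are from counts with TMM scaling. The group labels were checked against marker genes. The 5 pluripotency markers summed to 3161 to 3344 FPKM in hiPSCs and to 8.96 FPKM or less in every other library. The 6 retinal neuron markers summed to 777 to 814 FPKM in D150-ROs and 1.58 or less in P1 and P5 iMGCs. Of the 5 MGC markers, VIM had 2141 to 2181 FPKM in P1 iMGCs, GLUL 12.3 to 14.6, SOX9 4.98 to 5.48 and SLC1A3 0.360 to 0.390, and RLBP1 was listed at 0 in all 3 libraries. The 6 fibroblast-like markers, which include collagens, summed to 2246 to 2352 FPKM in P1 iMGCs and 2533 to 2780 in P5 iMGCs, against 20.6 to 24.0 in D150-ROs. The libraries carry no batch of preparation or sequencing in their labels, and batch and group therefore cannot be told apart. The values used for hiPSCs and ROs were deposited together, and those of P1 and P5 iMGCs separately from them. Comparisons of iMGCs with hiPSCs or ROs thus draw on both deposits, and the part of this was not tested.

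IFITM1, IFITM2 and IFITM3 lie together on chromosome 11 (313506 to 315272 and 307631 to 315272 on the plus strand, and 319669 to 327537 on the minus strand). They were the most abundant members in hiPSCs and D70-ROs, and all 3 were highest in hiPSCs. IFITM1 had 316, 271 and 328 FPKM in the 3 hiPSC libraries and 196, 204 and 148 in D70-ROs. It then stood at 8.60, 8.81 and 11.96 in D150-ROs, 4.15, 4.69 and 5.74 in P1 iMGCs and 6.41, 4.84 and 6.58 in P5 iMGCs. Every D150-RO and iMGC library thus lay far below every hiPSC and D70-RO library, and P1 and P5 iMGCs overlapped.

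IFITM2 and IFITM3 had a different course, lowest in D150-ROs and higher again in iMGCs. IFITM2 stood at 195, 207 and 219 FPKM in the hiPSC libraries, 112, 130 and 95.7 in D70-ROs, 34.0, 33.6 and 26.4 in D150-ROs, 56.6, 55.4 and 55.1 in P1 iMGCs and 77.7, 82.4 and 78.2 in P5 iMGCs. IFITM3 stood at 244, 250 and 267 FPKM in the hiPSC libraries, 137, 170 and 122 in D70-ROs, 57.9, 58.3 and 46.8 in D150-ROs, 89.0, 85.9 and 89.7 in P1 iMGCs and 99.6, 122 and 112 in P5 iMGCs. For both genes the order was hiPSC, D70-RO, P5 iMGC, P1 iMGC and D150-RO, and no neighbours in it overlapped. IFITM5 and IFITM10, the other family members measured, had group means of at most 0.280 and 0.497 FPKM.

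The balance within the family changed as well. IFITM1 made up 39.8% ± 2.35 (SD, n = 3) of the summed FPKM of the 3 genes in hiPSCs and 41.7% ± 2.05 in D70-ROs. It made up 10.5% ± 3.11 in D150-ROs, 3.27% ± 0.524 in P1 iMGCs and 3.05% ± 0.638 in P5 iMGCs. IFITM1 was the most abundant of the 3 in all 6 hiPSC and D70-RO libraries and the least abundant in the other 9. The sum itself was 766 ± 44.8 FPKM in hiPSCs, 438 ± 69.5 in D70-ROs, 95.4 ± 8.86 in D150-ROs, 149 ± 2.45 in P1 iMGCs and 197 ± 12.6 in P5 iMGCs. These genes share sequence, and the authors' counting divides reads between them. Of the 50-base windows of their longest coding transcripts, 42.3% of IFITM1, 10.4% of IFITM2 and 17.9% of IFITM3 occur in another IFITM gene, and only these 3 members had counts that were not whole (in 12 to 14 of the 15 libraries). The IFITM1 and IFITM2 gene models also overlap on the same strand, so the division between these 2 is uncertain.

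**Figure D1:**
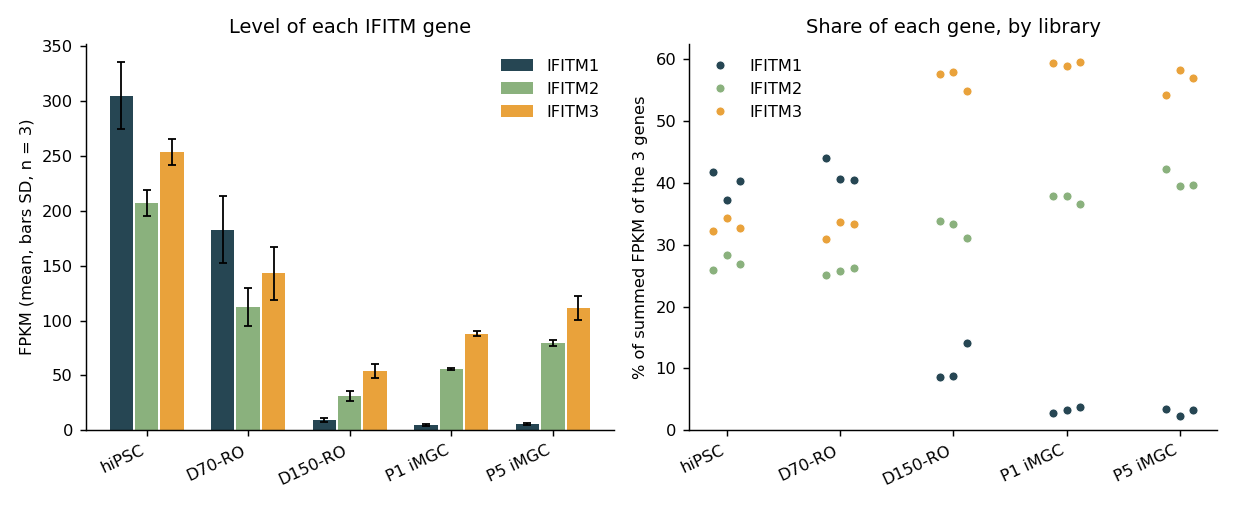
Left, mean FPKM of IFITM1, IFITM2 and IFITM3 in each group (vertical axis in FPKM, bars are SD, n = 3 libraries). Right, the share of each gene in the summed FPKM of the 3 genes (vertical axis in percent), with 1 point per library. The IFITM1 points sit near 40% in hiPSCs and D70-ROs and under 15% in the other 9 libraries.

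ISG15 (chromosome 1, 1001138 to 1014540) reached 13.9, 15.7 and 15.4 FPKM in the hiPSC libraries, 5.44, 4.46 and 3.97 in D70-ROs, 1.55, 2.15 and 1.95 in D150-ROs, 6.01, 9.73 and 10.5 in P1 iMGCs and 5.80, 7.11 and 6.76 in P5 iMGCs. It was therefore highest in hiPSCs and lowest in D150-ROs, and P1 and P5 iMGCs overlapped between them. MX1 (chromosome 21, 41420304 to 41459214) had the same extremes at a lower level. Its values were 3.83, 2.64 and 3.52 FPKM for the hiPSC libraries, 0.720, 0.400 and 0.520 in D70-ROs, 0.170, 0.280 and 0.530 in D150-ROs, 1.18, 1.81 and 1.05 in P1 iMGCs and 0.530, 0.550 and 1.24 in P5 iMGCs. Only the hiPSCs were separate from their neighbour in that order.

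IFI6 (chromosome 1, 27666061 to 27672218) peaked in D70-ROs, where it had 19.4, 18.5 and 17.4 FPKM. It had 3.08, 2.52 and 4.38 FPKM in hiPSCs, 6.78, 7.22 and 5.78 in D150-ROs, 3.95, 4.25 and 4.82 in P1 iMGCs and 5.46, 4.31 and 3.69 in P5 iMGCs. Both RO groups were separate from each other and from the hiPSCs and iMGCs, which overlapped. IFIT1 (chromosome 10, 89392546 to 89406486) was lowest in hiPSCs, at 1.63, 1.25 and 1.55 FPKM. It had 4.87, 3.25 and 3.77 in D70-ROs, 2.07, 2.45 and 1.95 in D150-ROs, 2.53, 2.86 and 2.59 in P1 iMGCs and 4.46, 3.40 and 5.27 in P5 iMGCs, so that P5 iMGCs and D70-ROs overlapped as the highest groups. IFIT1 overlaps LIPA on the other strand, and whether the counting used strand is not given in the sources used here.

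IRF1 (chromosome 5, 132481609 to 132490798) had its highest levels in iMGCs of both passages. It had 9.81, 10.8 and 10.6 FPKM in P1 iMGCs and 9.42, 11.1 and 11.1 in P5 iMGCs. The other groups lay at 4.09, 4.60 and 4.83 in D150-ROs, 3.28, 4.95 and 3.33 in hiPSCs and 3.11, 3.24 and 2.49 in D70-ROs. All 6 iMGC libraries were above all 9 others. OAS1 (chromosome 12, 112906777 to 112933222) was near the limit of detection, with 7 counts over the 3 hiPSC libraries, 27 in D70-ROs, 12 in D150-ROs, 11 in P1 iMGCs and 9 in P5 iMGCs. Its highest library, D70-RO replicate 1, had 1.28 FPKM and the other 14 had 0 to 0.310. OAS1 did not reach the filter of 1 FPKM in 3 libraries that the tests below used. With no filter, its log2 fold changes ran from −1.31 (D150-ROs against D70-ROs) to 1.98 (D70-ROs against hiPSCs, 27 and 7 counts, SE 0.93), with adjusted p of 0.075 or more by edgeR in all 6 comparisons.

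**Figure D2:**
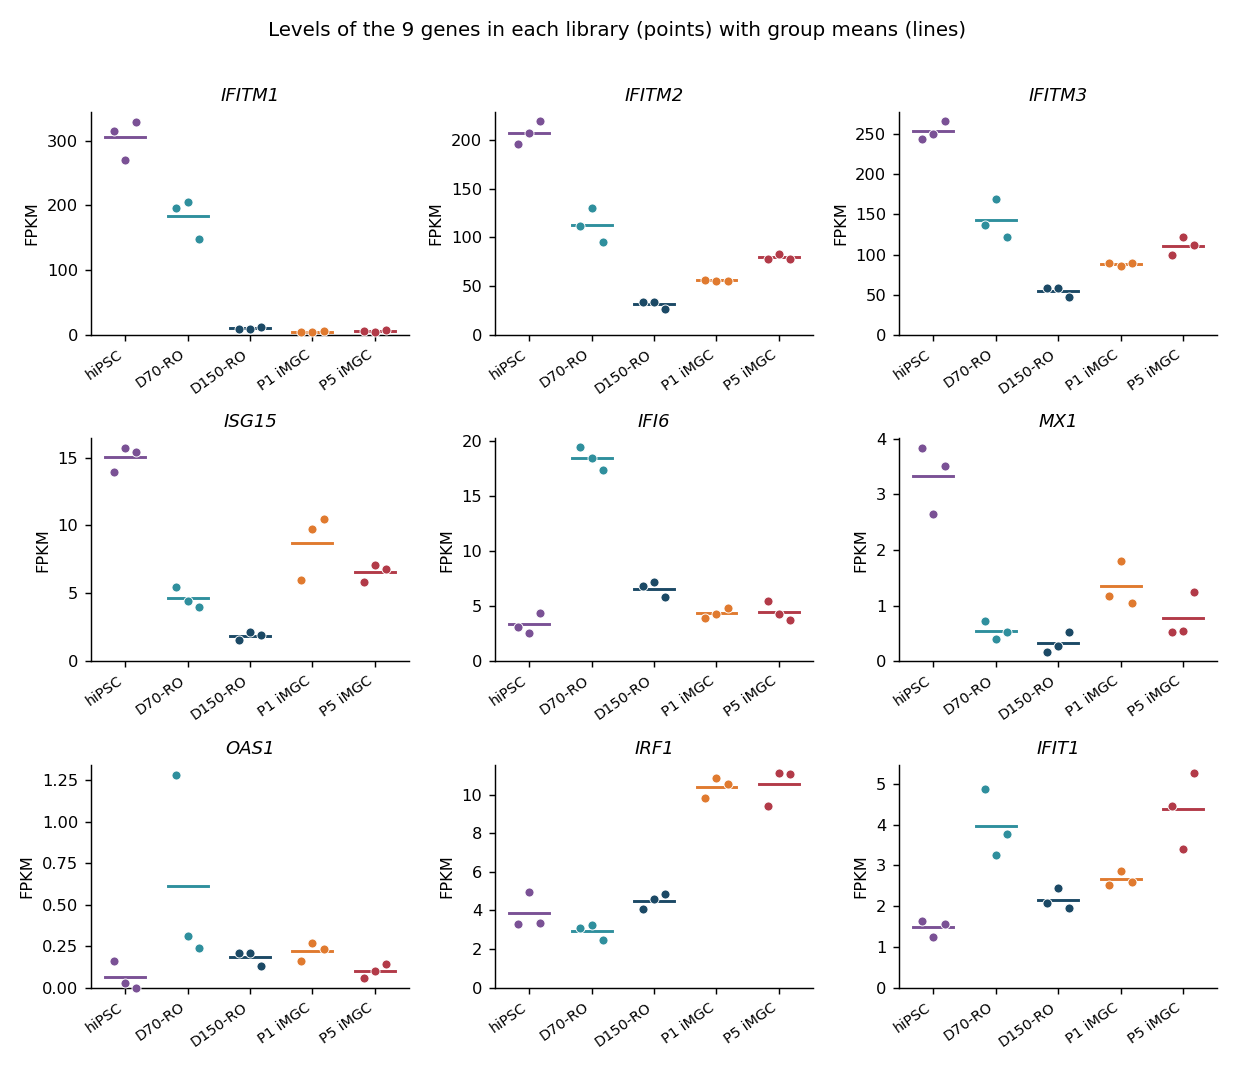
FPKM of the 9 genes in the 15 libraries, 1 panel per gene with its own vertical axis from 0, points for libraries and lines for group means. IFITM1 drops to under 12 FPKM from D150-ROs on, IFITM2 and IFITM3 partly regain their level in iMGCs, IFI6 peaks in D70-ROs and IRF1 is highest in iMGCs.

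Differences were tested between 2 groups at a time with edgeR's quasi-likelihood test over all genes with at least 1 FPKM in at least 3 of the libraries. Called genes are those with an adjusted p under 0.05 and a difference of at least 2-fold. The 6 comparisons share libraries and are not independent of each other. In these bulk samples, fewer cells of a type and less RNA per cell cannot be told apart.

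**Figure D3:**
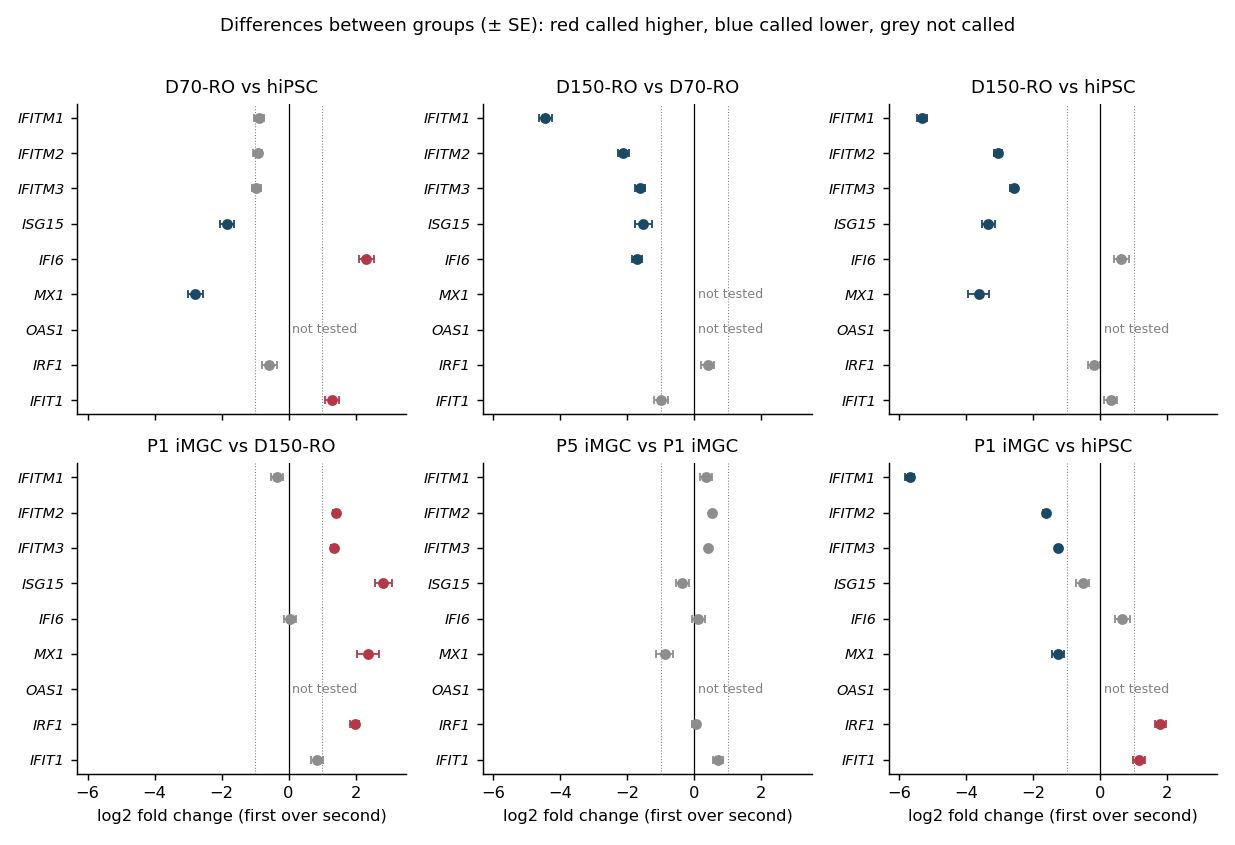
Log2 fold change of each gene (horizontal axis, first group over second) with its standard error in the 6 comparisons, dotted lines marking a 2-fold change. Blue points were called lower, red points higher and grey points were not called. IFITM1 reaches −5.32 in D150-ROs and −5.68 in P1 iMGCs against hiPSCs, and all points of P5 against P1 iMGCs are grey.

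From hiPSCs to D70-ROs the members moved in both directions. ISG15 fell by 1.83 on the log2 scale (SE 0.20, adjusted p = 9.4e-06) and MX1 fell by 2.78 (SE 0.23, adjusted p = 8.61e-07). MX1 passed the filter through hiPSCs alone, which fixed its direction, and with no filter it was at −2.79. IFI6 rose by 2.33 (SE 0.22, adjusted p = 2.69e-06) and IFIT1 by 1.30 (SE 0.22, adjusted p = 0.000227). Thus 4 of the 8 members tested were called, where 43.5% of all 12954 genes tested were called (22.5% higher and 21.1% lower). The libraries of the 2 groups did not overlap in FPKM for 8 of the 8 members, as for 75.5% of all genes tested. IFITM1, IFITM2 and IFITM3 were lower by less than 2-fold, at −0.87, −0.92 and −0.96 (adjusted p at most 0.00022), and IRF1 was at −0.58 (adjusted p = 0.036). Without D70-RO replicate 2, which had the smallest total, IFITM2 (−1.07) and IFITM3 (−1.13) passed 2-fold and 6 members were called.

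Interferon genes themselves were hardly detected. Of 10 ligand genes, 5 (IFNA2, IFNB1, IFNW1, IFNG and IFNL2) were at 0 in all 15 libraries, and none reached 1 FPKM in hiPSCs or ROs. Of the 12 receptor and JAK-STAT genes, 4 rose from hiPSCs to D70-ROs and 1 fell. The largest rise was that of JAK2 (3.30, SE 0.30), followed by the receptor subunits IL10RB (1.98) and IFNAR1 (1.69), and the receptor subunit IFNLR1 was the one that fell, by 3.23. Among 5 brakes on the pathway, the cytokine-signalling inhibitors SOCS1 and SOCS3 had log2 fold changes of −4.79 and −3.35, and PIAS1, an inhibitor of STAT proteins, rose by 1.34. SOCS1 stood at 17.8 FPKM in hiPSCs and 0.733 in D70-ROs. Adjusted p was at most 1.04e-05 for all 7 of these genes.

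Among genes that passed the filter, effectors and sensors were called lower more often than higher in D70-ROs. Of 18 further interferon-stimulated effectors tested, 8 fell and 3 rose, with a median of −0.38 against 0.02 over all genes. With no filter, 9 of 36 effectors were called higher and 9 lower, and of 11 sensors 0 were called higher and 5 lower. MX2, a relative of MX1, fell from 8.82 to 0.383 FPKM (log2 fold change −5.05), BST2, which tethers budding virus, from 24.6 to 1.26 FPKM (−4.39), ISG20, an RNA exonuclease, had a log2 fold change of −3.36 and ZC3HAV1, which targets viral RNA, of −2.73. Of 6 nucleic acid sensors and adaptors tested, 2 fell, the kinase IKBKE by 2.73 and CGAS, the cytosolic DNA sensor. CGAS had 290 counts in hiPSCs and 2 in D70-ROs, with a 95% counting interval of the log2 ratio from −10.10 to −5.19. Among interferon regulatory factors, IRF3 was lower at −1.54, and the ISG15 ligase HERC5 was the 1 of 3 ISG15 conjugation genes called, lower by 1.54.

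From D70-ROs to D150-ROs the IFITM genes, ISG15 and IFI6 all fell. IFITM1 had the largest difference, with a log2 fold change of −4.45 (SE 0.19, adjusted p = 2.74e-07). IFITM2 was at −2.12 (SE 0.16, adjusted p = 5.5e-06), IFITM3 at −1.62 (SE 0.16, adjusted p = 2.11e-05), IFI6 at −1.70 (SE 0.15, adjusted p = 1.32e-05) and ISG15 at −1.52 (SE 0.26, adjusted p = 0.000716). With these, 5 of the 7 members tested were called, all lower, where 33.3% of 12855 genes were called (16.6% higher and 16.7% lower). The groups did not overlap for 7 of the 7, as for 77.2% of all genes. The median of the members was −1.62 and that of all genes −0.01. Over all genes, edgeR called 2131 higher and 2145 lower, and limma on log2(FPKM + 1) called 2250 higher and 1302 lower. IFIT1 was just inside 2-fold at −0.99 (adjusted p = 0.00194) and was called when D70-RO replicate 2, D70-RO replicate 3 or D150-RO replicate 2 was left out (−1.09, −1.06 and −1.13). IRF1 was at 0.40 (adjusted p = 0.0907), and MX1 did not reach the filter. With no filter MX1 was at −0.86 (44 and 70 counts, SE 0.48, adjusted p = 0.147).

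The log2 fold changes of all genes showed a trend with transcript length in this comparison, and the 5 members that fell have short transcripts (787 to 892 bases). Genes with transcripts of up to 2443 bases had a median log2 fold change of −0.67, with 35.2% called lower and 8.05% called higher, and those with transcripts of 5543 bases or more had a median of 0.57. When the trend on length was removed, a setting chosen after seeing the data, IFITM1 was still called at −3.26 (adjusted p = 3.73e-07). IFITM2 was then at −0.96, IFITM3 at −0.39, IFI6 at −0.51 and ISG15 at −0.29, none of them called, and IFIT1 was called at −1.16, so that 2 members were called in place of 5. The part of length in these falls was not tested beyond this.

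**Figure D4:**
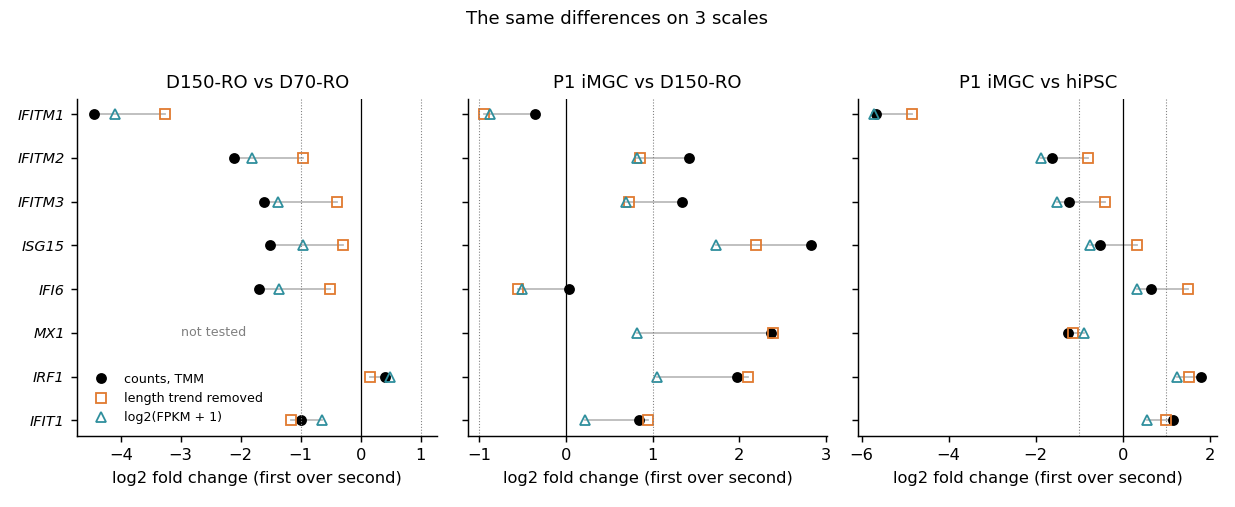
Log2 fold change of 8 genes (horizontal axis, first group over second) from counts with TMM scaling (black circles), from the same counts with the trend on transcript length removed (orange squares) and from log2(FPKM + 1) (blue triangles), dotted lines at 2-fold. In D150-ROs against D70-ROs, IFITM1 stays beyond −3 on all 3 scales while IFITM2, IFITM3, ISG15 and IFI6 move to between −0.96 and −0.29 with the length trend removed.

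No receptor or JAK-STAT gene was called lower alongside the members. Of 11 receptor and JAK-STAT genes tested, 5 rose and 0 fell, or 3 and 0 with the trend on length removed. Among the 5 were JAK2 (1.86), STAT2 (1.62), IRF9 (1.31) and IFNAR1 (1.18). STAT2 went from 8.60 to 31.2 FPKM and IRF9 from 8.91 to 37.5. Of 19 further effectors, 5 rose and 1 fell, and with no filter 10 of 35 were called higher and 3 lower. The largest rise was that of IFI44, with 1 count in D70-ROs and 393 in D150-ROs (95% counting interval of the log2 ratio 5.94 to 13.74). IFI44 passed the filter through D150-ROs alone, which fixed its direction. SAMD9L, a growth and virus restriction factor, rose by 3.28, IFI16, a DNA sensor, from 1.39 to 13.4 FPKM (2.85) and ZC3HAV1 by 1.96. IFIH1, the RNA sensor MDA5, rose by 2.21, SOCS3 by 2.48 and SOCS1 by 1.01 (adjusted p = 0.0294), and UBE2L6, the conjugating enzyme of ISG15, fell by 1.23. The SOCS1 call was lost without D70-RO replicate 1 (0.79), D70-RO replicate 3 (0.96), D150-RO replicate 1 (0.86) or D150-RO replicate 2 (0.93), and with the trend on length removed IFNAR1 (0.80) and UBE2L6 (−0.49) were no longer called.

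Across the whole interval from hiPSCs to D150-ROs, 5 of 8 members tested were called, all lower, where 58.8% of 13344 genes were called (29.8% higher and 29% lower). The groups did not overlap for 7 of the 8, as for 87.4% of all genes. The log2 fold changes were −5.32 for IFITM1 (SE 0.14, adjusted p = 1.05e-11), −3.04 for IFITM2 (SE 0.12, adjusted p = 2.28e-10) and −2.58 for IFITM3 (SE 0.11, adjusted p = 3.21e-10). MX1 was at −3.63 (SE 0.31, adjusted p = 2.11e-07) and ISG15 at −3.35 (SE 0.19, adjusted p = 5.87e-09). MX1 again passed the filter through hiPSCs alone, which fixed its direction, and with no filter it was at −3.62. All 5 were called under each scale tried, and with the trend on length removed they ran from −3.92 (IFITM1) to −1.15 (IFITM3). IFI6 at 0.62, IFIT1 at 0.31 and IRF1 at −0.18 were not called, although IFI6 was called at 2.03 with the trend on length removed.

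Over the same interval the receptor and JAK-STAT genes went the other way, with 8 of 12 higher and 1 lower. All genes showed a trend with length here too, with medians of −0.90 up to 2423 bases and 0.89 from 5508 bases. JAK2 was at 5.17, IFNAR1 at 2.86, IRF9 at 2.12 and IFNLR1 at −2.80. Of 21 further effectors tested, 8 were higher and 5 lower (median 0.72, and −0.10 with the trend on length removed, where 8 were higher and 7 lower), with MX2 at −7.03 and BST2 at −6.32 on one side and SAMD9L at 6.34 on the other. IFI44 was higher too, with 3 counts in hiPSCs against 393 (95% counting interval of the log2 ratio 5.42 to 9.26), and its direction was again fixed by the filter. With no filter, 14 of 36 effectors were called higher and 6 lower. Among the sensors, IFIH1 was higher by 3.20, and CGAS (−5.36), IKBKE (−3.48) and MYD88 (−1.45) were lower. SOCS1 and USP18, which removes ISG15 from proteins and blocks the type I receptor, were lower at −3.77 and −1.69, PIAS1 was higher at 1.95, and IRF3 was lower at −1.81. HERC5 and UBE2L6 were the 2 of 3 ISG15 conjugation genes called, at −2.24 and −1.37.

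From D150-ROs to P1 iMGCs, 5 of 8 members tested rose and none was called lower, where 44.1% of 12896 genes were called (20% higher and 24.1% lower). The groups did not overlap in FPKM for 8 of the 8, as for 87.9% of all genes, and for IFITM1 and IFI6 it was the P1 iMGC libraries that were lower. ISG15 rose by 2.83 on the log2 scale (SE 0.26, adjusted p = 5.2e-08), MX1 by 2.37 (SE 0.34, adjusted p = 7.57e-06) and IRF1 by 1.98 (SE 0.13, adjusted p = 8.23e-10). MX1 passed the filter through P1 iMGCs alone, which fixed its direction, and with no filter it was also at 2.37. IFITM2 rose by 1.42 (SE 0.09, adjusted p = 5.82e-10) and IFITM3 by 1.34 (SE 0.08, adjusted p = 9.9e-11). IFIT1 was at 0.85 (adjusted p = 0.000245), under 2-fold. IFITM1 did not rise with the other IFITM genes, at −0.35 (SE 0.18, adjusted p = 0.0844), while the counts of the 3 genes added together rose by 1.26. IFI6 was at 0.04 (SE 0.18, adjusted p = 0.837).

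The size of these rises differed between scales. Over all genes the median log2 difference was −0.05 with TMM and −0.59 on log2(FPKM + 1), where limma called 1329 genes higher and 4478 lower against 2581 and 3105 with edgeR. On log2(FPKM + 1), ISG15 (1.73) and IRF1 (1.05) were called, and IFITM2 (0.82), IFITM3 (0.70) and MX1 (0.82) were higher by less than 2-fold. IFITM1 was at −0.88 and IFI6 at −0.51 on that scale. With the trend on length removed, IFITM2 (0.85) and IFITM3 (0.72) were also under 2-fold, and ISG15 (2.19), MX1 (2.40) and IRF1 (2.11) were called. Cell type markers moved with these rises. Of the 5 MGC markers, 1 was called higher and 4 lower in P1 iMGCs, with a median of −2.39. Between D150-ROs and P1 iMGCs the summed retinal neuron markers went from at least 777 to at most 1.58 FPKM and the fibroblast-like markers from at most 24.0 to at least 2246. Of 8 microglia and macrophage markers, CX3CR1, AIF1, P2RY12 and TYROBP were at 0 in P1 iMGCs, and only CD68 reached a mean of 1 FPKM there (6.63, against 3.70 in D150-ROs). The part of these cell types in the rises was not tested.

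Further effectors and sensors also rose. Of 23 further effectors tested, 14 rose and 0 fell by edgeR, with a median of 1.08 against −0.05 over all genes. Means of at least 1 FPKM were reached by 19 effectors in D150-ROs and 23 in P1 iMGCs. Some effectors, GBP1 among them, thus passed the filter through P1 iMGCs alone, which fixed their direction and raised these counts and the median. The same filter held for 2 other settings. On log2(FPKM + 1), limma called 8 of the 23 effectors higher and 0 lower, with a median of 0.32 against −0.59 over all genes. With upper-quartile scaling 10 were called higher and 0 lower. With no filter, 15 of 35 were called higher and 4 lower. Some effectors had lower FPKM in P1 iMGCs, among them IFI44 (5.29 to 2.27) and PARP9 (9.79 to 4.85), which were chosen after their values were seen. GBP1, a guanylate-binding protein, went from 0.0933 FPKM, near the floor, to 37.2 FPKM (log2 fold change 9.20, edgeR adjusted p = 1.2e-17). With each library left out, its log2 fold change ranged from 8.76 to 9.79. IFIT2 and IFIT3, the relatives of IFIT1, rose by 4.02 and 3.19, and TRIM22 by 3.08. Of 9 sensors and adaptors tested, 6 rose and 0 fell by edgeR, and limma on log2(FPKM + 1) called 5 higher and 0 lower. Means of at least 1 FPKM were reached by 5 sensors in D150-ROs and 9 in P1 iMGCs. Some, STING1 among them, thus passed the filter through P1 iMGCs alone, and their direction was fixed by it in both tests. STING1, the adaptor of cytosolic DNA sensing, had 0 counts in D150-ROs and 312 in P1 iMGCs, at least 156-fold higher against a floor of 3 counts over the group. TICAM1 (3.79) and TLR3 (3.08), the adaptor and receptor for double-stranded RNA, and IKBKE (3.15) rose as well. UBA7, the activating enzyme of ISG15, rose by 2.14 and the ligase HERC6 by 1.29.

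Upstream, 1 signalling gene rose and 1 fell. Of 11 receptor and JAK-STAT genes tested, JAK1 rose by 1.12 and IRF9 fell by 1.56. The JAK1 value was 0.47 on log2(FPKM + 1). USP18 fell by 2.08 and SOCS3 by 1.19, and 0 of the 5 brakes rose. IRF7 fell by 1.17. Of the 10 ligand genes, IFNE alone reached 1 FPKM in any library, with 1.35, 1.48 and 1.58 FPKM in P1 iMGCs and 0.770, 1.18 and 0.760 in P5 iMGCs. It had 2 counts in D150-ROs against 109 in P1 iMGCs (95% counting interval of the log2 ratio 4.47 to 9.42) and 0 in hiPSCs and D70-ROs. The other ligand genes had at most 2 counts in any group. IFNE is a type I interferon known from epithelia of the reproductive tract.

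Between P5 and P1 iMGCs, 0 of 8 members tested were called by edgeR, where 2.92% of 11366 genes were called (1.94% higher and 0.977% lower). The passages did not overlap for 3 of the 8, as for 39.5% of all genes. DESeq2 and limma also called 0 of the members. IFITM2 was higher at P5 by 0.54 (SE 0.06, adjusted p = 3.27e-08), IFITM3 by 0.39 (SE 0.06, adjusted p = 1.9e-05) and IFIT1 by 0.72 (SE 0.15, adjusted p = 0.000794). MX1 was at −0.89 (SE 0.26, adjusted p = 0.00947). Without P5 iMGC replicate 3, the highest of its group, MX1 was at −1.23 and called. IFITM1 (0.34), ISG15 (−0.35), IFI6 (0.11) and IRF1 (0.04) differed by adjusted p of 0.158 or more.

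Of the lists, 2 genes were called between passages. Of 23 further effectors tested, 1 was called, SAMD9, a restriction factor related to SAMD9L, which rose from 1.36 to 4.34 FPKM (log2 fold change 1.74, SE 0.09, adjusted p = 2.04e-13). Of 9 sensors tested, TLR3 was called, lower at P5 by 2.17 (SE 0.18, adjusted p = 5.86e-10), from 3.31 to 0.690 FPKM. None of the 11 receptor and JAK-STAT genes, 4 brakes, 4 interferon regulatory factors and 4 ISG15 conjugation genes tested was called by edgeR.

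P1 iMGCs and hiPSCs were both grown as adherent cultures, but in different media. Of 8 members tested, 4 were lower and 2 higher in P1 iMGCs, where 55.8% of 12666 genes were called (26.1% higher and 29.7% lower). The groups did not overlap for 7 of the 8, as for 86% of all genes. IFITM1 had a log2 fold change of −5.68 (SE 0.13, adjusted p = 1.27e-11), IFITM2 of −1.63 (SE 0.08, adjusted p = 4.73e-09), IFITM3 of −1.25 (SE 0.07, adjusted p = 2.08e-08) and MX1 of −1.26 (SE 0.17, adjusted p = 3.11e-05). IRF1 was higher by 1.80 (SE 0.16, adjusted p = 5.51e-07) and IFIT1 by 1.15 (SE 0.17, adjusted p = 6.15e-05). ISG15 at −0.52 and IFI6 at 0.66 were not called. Here too there was a trend with length, with medians of −0.68 up to 2419 bases and 0.62 from 5491 bases. With that trend removed IFITM1 (−4.85), MX1 (−1.16) and IRF1 (1.53) were still called, IFITM2 (−0.79), IFITM3 (−0.40) and IFIT1 (0.99) were not, IFI6 (1.49) was called and ISG15 turned to 0.32. On log2(FPKM + 1) the median of all genes was −0.35, and limma called 2279 genes higher and 4127 lower against 3307 and 3759 with edgeR.

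Further effectors were called in both directions. Of 26 further effectors tested, 17 were higher in P1 iMGCs and 4 lower, with a median of 2.10 against −0.08 over all genes. Means of at least 1 FPKM were reached by 16 effectors in hiPSCs and 23 in P1 iMGCs, and by 6 and 9 sensors. Some genes, GBP2 among them, thus passed the filter through P1 iMGCs alone, which fixed their direction and raised these counts and the median. GBP1 was higher by 9.91, and GBP2 had 1 count in hiPSCs and 423 in P1 iMGCs (95% counting interval of the log2 ratio 6.76 to 14.55). MX2, with 1048 counts in hiPSCs and 0 in P1 iMGCs, was at least 243-fold lower, and BST2 had 1495 counts against 2 (95% counting interval of the log2 ratio −12.07 to −7.17). Of 12 receptor and JAK-STAT genes, 8 were higher and 1 lower, with JAK2 at 4.73, JAK1 at 3.12, IFNAR1 at 2.98 and IFNLR1 at −3.44. Of 10 sensors, 6 were higher and 1 lower, with STING1 at 5.17, TICAM1 at 3.65, IFIH1 at 3.23 and CGAS at −5.55. USP18 (−3.77), SOCS1 (−3.65) and SOCS3 (−2.05) were all lower among the 5 brakes, as were IRF3 (−1.80) and IRF7 (−1.52) among the interferon regulatory factors. UBA7 was higher (4.42) and HERC5 (−2.85) and UBE2L6 (−1.31) lower among 5 ISG15 conjugation genes.

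**Figure D5:**
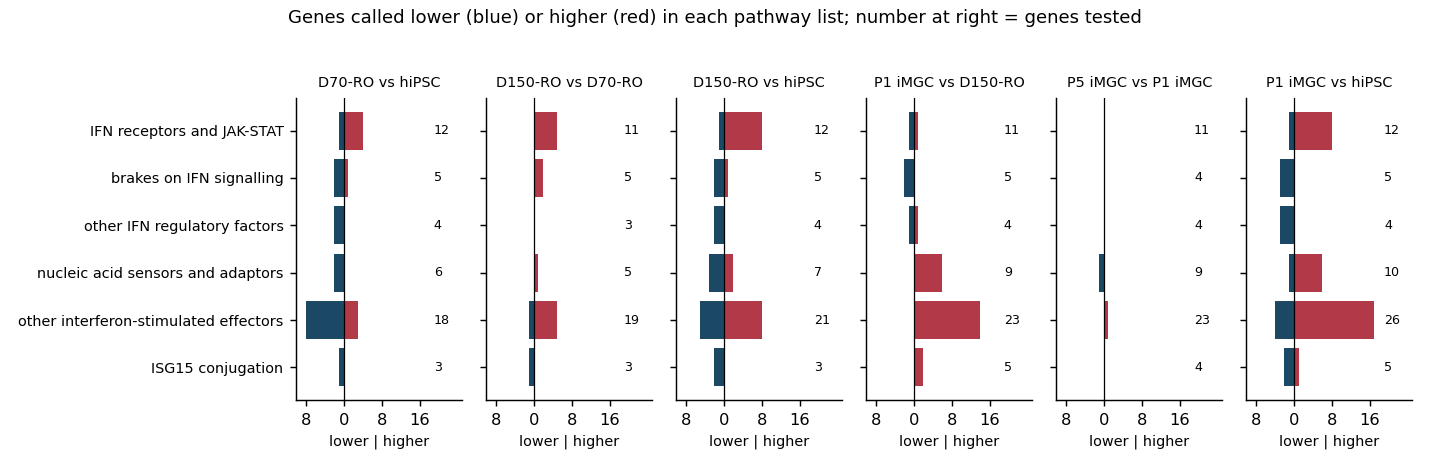
Number of genes called lower (blue, left) and higher (red, right) in 6 lists of the interferon pathway for each comparison, with the number tested at the right of each bar. By edgeR with TMM, effectors and sensors that passed the filter are called higher and none lower in P1 iMGCs against D150-ROs, 14 and 6 genes. Some of these genes passed it through P1 iMGCs alone, which fixed their direction. Between passages, 1 effector and 1 sensor are called and no gene of the other lists.

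Genes elsewhere in the table had courses like those of the members on log2(FPKM + 1). Likeness was measured as the root mean square difference of the 5 group means of log2(FPKM + 1) after centring, over 12903 genes, and describes levels only. The added 1 shrinks differences at low FPKM, so near genes can differ in fold change. Between hiPSCs and D150-ROs, MX1 went from 3.33 to 0.327 FPKM and its nearest gene, IGF2BP3, from 48.7 to 14.3. The nearest gene to IFITM1 was PMEL, a melanosome protein, at 0.602, with PIMREG (0.678) and NEFL (0.678) next. IFITM2 was nearest to IFITM3 (0.184), then to ALDOA (0.198) and UCP2 (0.200). The nearest genes to IFITM3 were MRPL14 (0.0901), FSCN1 (0.110) and FNDC10 (0.137). ISG15 was nearest to SYNGR2 (0.0898), FUOM (0.125) and PEDS1-UBE2V1 (0.128), and MX1 to IGF2BP3 (0.0479), RAB15 (0.104) and YBX3 (0.124). IFI6 was nearest to HIST2H2AA4 (0.111), CLEC18B (0.118) and CRYGS (0.125), IRF1 to ARHGEF6 (0.0632), KLF5 (0.0779) and RIC1 (0.0909), and IFIT1 to CKLF (0.121), DUSP3 (0.145) and PWWP3B (0.148). Apart from the pair of IFITM2 and IFITM3, none of these genes is on the lists of the interferon pathway used here.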

How the data were processed

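Per the labels and the study's methods, the authors' tools were HISAT2 for mapping, StringTie for assembly and RSEM for quantification, with no versions, genome build or annotation given in the sources used here. The deposited values are RSEM expected counts (estimated reads per gene, not normalized) and FPKM (scaled by the authors for length and mapped reads). The data set description also mentions another sequencing company and a batch correction, leaving unclear which values they apply to, and gives 2 independent experiments for hiPSCs and ROs where the sample descriptions give 3, so p-values measure only the spread between these libraries. Another table's 6 iMGC columns without a passage were not used.

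Counts were rounded. edgeR 4.0.16 (R 4.3.3) glmQLFit and glmQLFTest with TMM compared 2 groups at a time, keeping genes that reached 1 FPKM in 3 or more libraries, with Benjamini-Hochberg adjustment over all genes tested. Called means adjusted p under 0.05 and at least 2-fold. SE is the log2 fold change divided by the root of F. All 19684 identifiers are in GENCODE 29, and gene positions are from that release on GRCh38. Promoters were matched by symbol to a RefSeq table. Members and pathway lists were chosen with earlier results of these data known. All members are given in every library. Of each pathway list, up to 4 called genes with the largest fold change and non-overlapping groups are named, with others by count, except for some results that are not reported here. For each member with a group mean of at least 1 FPKM, the 3 nearest genes are named. Alternatives were upper-quartile scaling, DESeq2 1.42.0, no filter, all 15 libraries together, the replicate number as a block, testing against 2-fold rather than no change, limma 3.58.1 on log2(FPKM + 1) and log2(FPKM + 0.1), IFITM counts summed, each library left out (same genes tested) and, added later, a length trend removed (a smooth curve of each library on the longest transcript, as an offset). The tests were tested on simulated data. Intervals and floors (3 counts) cover counting error only.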

Additional observations from a re-analysis of the deposited data

How the results depend on the processing

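Between P5 and P1 iMGCs, 694 genes were called with no filter, 514 with all 15 libraries in 1 fit, 161 when tested against a 2-fold change and 152 by limma on log2(FPKM + 1), against 332. From D70-ROs to D150-ROs, 2830 genes passed when tested against a 2-fold change, against 4276. With the length trend removed, 2 members were called there in place of 5. Between P1 iMGCs and D150-ROs, 2 members were called by limma on log2(FPKM + 1), 3 on log2(FPKM + 0.1) and 3 with the length trend removed, in place of 5. Directions that turned were those of IRF1 in D150-ROs against hiPSCs (0.20 and 0.24 by limma), ISG15 in P1 iMGCs against hiPSCs (0.32, length trend removed) and, in P1 iMGCs against D150-ROs, IFI6 (−0.075 with upper-quartile scaling, −0.51 and −0.59 by limma, −0.56 with the length trend removed). The summed counts of the 3 IFITM genes gave 1.26 there, which is the value of the sum and opposite in sign to IFITM1, whose own value was negative under all alternatives run. With each library left out, members called between P5 and P1 iMGCs numbered 0 to 1, IFI6 ranged there from −0.042 to 0.23 and IRF1 from −0.041 to 0.11, and IFI6 in P1 iMGCs against D150-ROs ranged from −0.060 to 0.11. The causes were not tested.

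With the replicate number as a block, 5662, 4317, 7845, 5691, 333 and 7079 genes were called in the order of the comparisons in the text, and 4, 5, 5, 5, 0 and 6 members, as without the block. Same-numbered libraries had correlations of −0.074 to 0.337 in their deviations from the group means, so the numbers were not taken to pair the libraries. Few counts limit OAS1 and, in ROs, MX1. Values rest on 3 libraries a group from 1 line.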
